A study of Mus musculus with 4 samples.

Results

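The Zeb1 peaks that the authors' annotation placed at a transcription termination site (TTS) or in a 3' UTR made up 565 of the 17435 peaks of the unified list (3.24%). They were taken as every peak whose annotation term begins with TTS, which gave 451 peaks, or with 3' UTR, which gave 114. The same annotation program also gave the term TTS to 469 and the term 3' UTR to 35 further peaks, but these lay within 5 kb of the start of a gene, were classed as promoter peaks in the list and were therefore not members.

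In ChIP-seq, DNA held by a protein is pulled down with an antibody and sequenced, and Zeb1 was mapped in this way with 8 μg of an anti-Zeb1 antibody. The cells were D3, an established line of mouse embryonic stem cells (mESC), grown in GS, the ground state medium that holds 1 μM PD0325901 (a MEK inhibitor), 3 μM CHIR99021 (a GSK-3 inhibitor) and 20 ng per mL LIF. There were 3 Zeb1 ChIP libraries and 1 input library, all from cells fixed with 1% formaldehyde, and chromatin was sheared to about 200 bp. For each peak the list gives the authors' mean of the Zeb1 ChIP reads, called treatment reads here, of the input reads and of the enrichment over input. No value per library is in the list, so the spread between libraries could not be measured, and tests between classes treat peaks as features of 1 list.

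Zeb1 is a zinc finger and homeodomain transcription factor that binds E-box sequences and recruits corepressors, and it is best known for repressing epithelial genes during the epithelial to mesenchymal transition. The end of a transcript is where the RNA is cut and polyadenylated, usually shortly after a poly(A) signal, and the 3' UTR is the stretch of the messenger RNA between the stop codon and that end. Gene catalogues also hold short or partly spliced transcripts that end inside a longer gene, and each such end can be used to annotate a peak.

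The Zeb1 motif searched on both strands was C or T, any base, C or T, then ACCTG. Matches nearest the transcript end in peaks of highest enrichment, and in the gene with the most TTS peaks, are shown with the bases around them, to give sequence that lay under these peaks. The peak of Sipa1l3 shown has an enrichment of 5.56. For ENSMUSG00000102724, an ID not found in GENCODE vM21, the match nearest the peak centre is shown. Positions are in GRCm38 (mm10), the sequence is read 5′ to 3′ on the strand of the match, and capitals mark the motif.
ENSMUSG00000102724, TTS, chr3:93288577-93288606, minus strand: tcagctgccagTCCACCTGcagaggccccc
Gm17934, TTS, chr3:6137525-6137554, plus strand: cccgtgccctgCTCACCTGggctggccttg
Cldn14, TTS, chr16:93919805-93919834, minus strand: gactgccgtatCCTACCTGaagggactgtg
Ppp4r1l-ps, TTS, chr2:173584134-173584163, minus strand: ttcatccagggTATACCTGagtgagaggtc
Cacna1i, 3' UTR, chr15:80395756-80395785, plus strand: aatactttgccCACACCTGggagtggcata
Trio, 3' UTR, chr15:27731991-27732020, minus strand: agtgcttggtgTCCACCTGgcaccgagctt
Sipa1l3, TTS, chr7:29400116-29400145, plus strand: gggcgccaggaTCCACCTGcaggagctccc

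The label of a gene end held for only part of these peaks. Of the 451 TTS peaks, 443 had a host gene, the gene named in the annotation, that was found in GENCODE vM21, and 436 of these (98.4%) had their centre between 100 bp before and 1000 bp after the end of a transcript of that gene, the window by which the annotation program gives the term TTS. The outermost 3' end of the gene itself was that close in only 117 (26.4%, 95% Wilson interval 22.5 to 30.7). Another 319 TTS peaks lay at inner ends, the ends of other transcripts of the gene, with the centre a median of 4509 bp before the outermost end, and 7 lay at no end of their host. The matched or nearest transcript was protein-coding for 210 TTS peaks, a retained intron form for 87, a processed transcript without an open reading frame for 80 and a target of nonsense-mediated decay for 21. The 3' UTR peaks lay closer to their name: the centre was inside a curated RefSeq 3' UTR for 93 of 114 (81.6%, interval 73.5 to 87.6), and it lay a median of 1666 bp before the outermost end of the gene. With curated RefSeq transcripts alone, 259 peaks of the list had their centre in a 3' UTR or in the window of an end and lay over 5 kb from the assigned start, and 237 of these were among the 565. Any part of the peak overlapped a curated transcript end in 189 of the 565. The peaks are therefore called TTS and 3' UTR peaks below, after their annotation terms, and not gene ends.

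**Figure D1:**
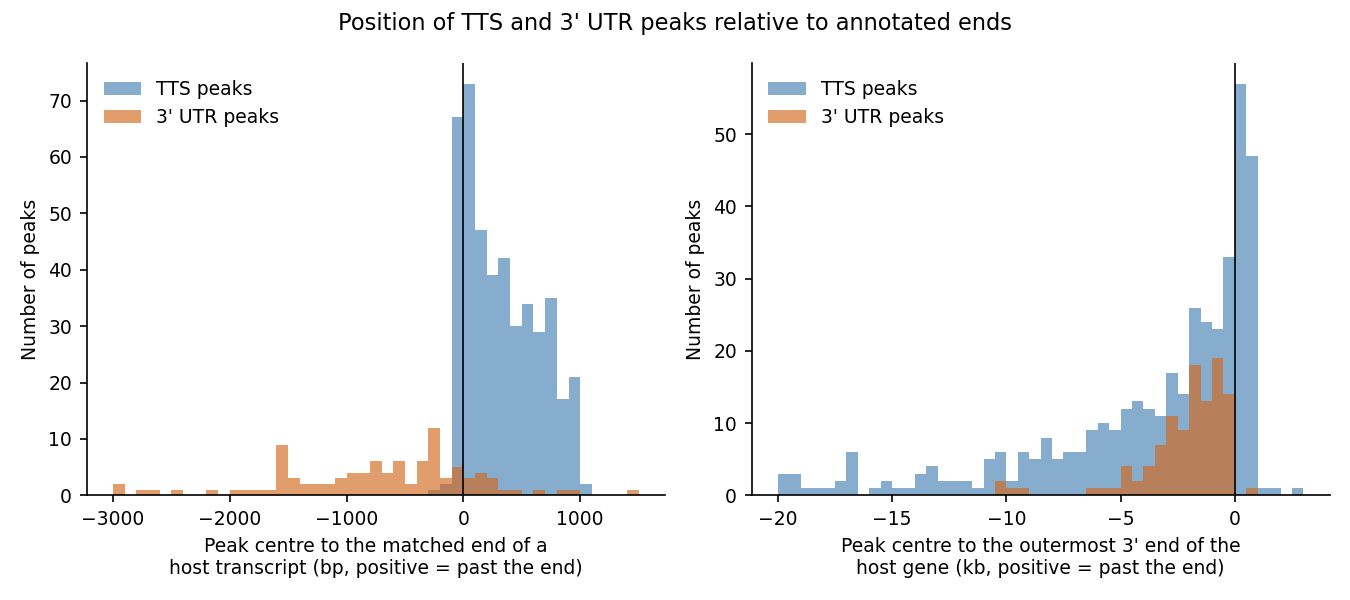
Distance in bp from the peak centre to the matched transcript end (left) and in kb to the outermost 3' end of the host gene (right), for TTS peaks (blue) and 3' UTR peaks (orange) with a host gene in GENCODE; positive values lie past the end. The annotation term itself places TTS peaks between 100 bp before and 1000 bp after a transcript end, and 117 of 443 lie so at the outermost gene end; 4 TTS and 15 3' UTR peaks lie outside the left axis and 38 and 5 outside the right.

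The sequence before the annotated ends of TTS peaks was also read at outermost and inner ends. A poly(A) signal, AATAAA or ATTAAA on the strand of the gene in the last 50 bp, stood before 58 of the 117 outermost ends with a TTS peak (49.6%, interval 40.7 to 58.5). Among the inner ends matched to the 319 TTS peaks it stood before 20 (6.27%, interval 4.09 to 9.48). The outermost ends of the host genes of those same 319 peaks carried it in 239 cases (74.9%, interval 69.9 to 79.4). For 3' UTR peaks it stood before the nearest transcript end in 55 of 114 cases (48.2%, interval 39.3 to 57.3). Host type was not held equal in these counts. Of the 443 TTS peaks, 395 had a protein-coding host, and the other hosts include pseudogenes and short noncoding RNA genes. The counts were added after the positions had been seen and are given as a description, without a test.

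The detailed annotation in the list, made on RefSeq genes, gave a further view of the same peaks. It placed 75 of the 451 TTS peaks (16.6%) at a TTS, 49 (10.9%) in a 3' UTR, 149 (33.0%) in an exon and 100 (22.2%) in an intron. Of the 114 3' UTR peaks it placed 86 (75.4%) in a 3' UTR, 12 in an exon and 4 in an intron. A retrotransposon was the term for 22 TTS peaks and 1 3' UTR peak. The gene that the list assigned by the nearest start was the host gene, by symbol, Ensembl ID or Entrez ID, for 211 TTS peaks (46.8%) and 43 3' UTR peaks (37.7%), so that most of these peaks stand in the list under the name of another gene.

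**Figure D2:**
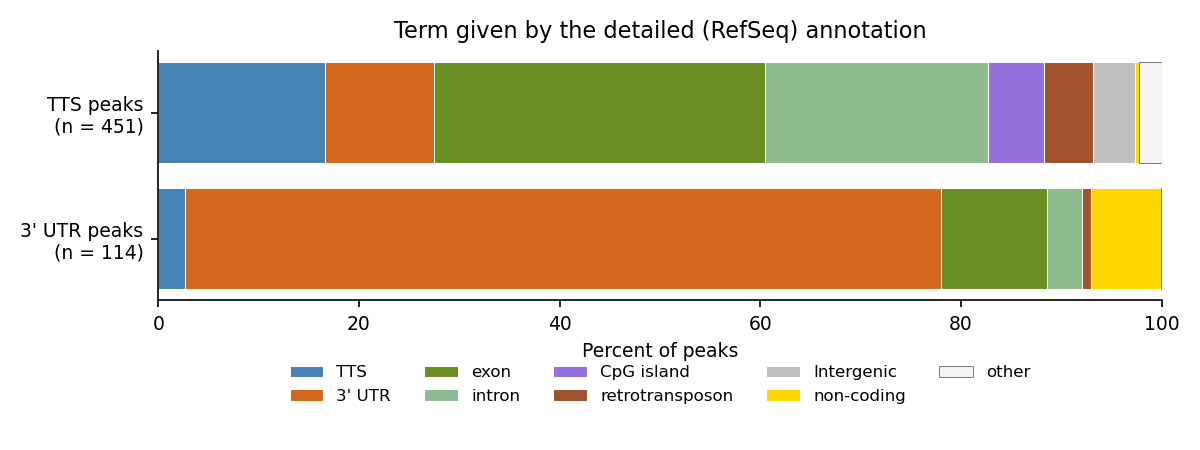
Term given by the RefSeq-based detailed annotation, as percent of the 451 TTS peaks and of the 114 3' UTR peaks; each bar adds up to 100%. Exon and intron terms make up 33.0% and 22.2% of the TTS peaks, while 75.4% of the 3' UTR peaks keep the term 3' UTR.

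The 565 peaks had 543 host genes. Of these, 522 had 1 such peak and 21 had 2 or more. Among the 22028 protein-coding genes of GENCODE, 487 (2.21%) were a host. Only Sipa1l3, which encodes a protein related to Rap GTPase-activating proteins, had 3 peaks, at 1178, 9903 and 79728 bp before its outermost end, and their enrichment was 8.61, 5.27 and 5.56. The annotation IDs of 8 TTS peaks were not found in GENCODE vM21. No member lay on chromosome X, 0 of 565, which allows a share of up to 0.531%, while 1.58% of the list did. Chromosomes 8, 5 and 11 held the most members, with 69, 66 and 65 peaks (12.2%, 11.7% and 11.5%, against 7.59%, 6.60% and 8.02% of the list).

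The TTS peaks had a median of 47.5 treatment reads (quartiles 33 to 66.6) over a median of 15 input reads (quartiles 11.5 to 20.8). For the 3' UTR peaks the medians were 40.5 treatment reads (quartiles 30.6 to 53.5) and 14.1 input reads. Median enrichment was 6.40 for TTS peaks and 6.21 for 3' UTR peaks, and it ranged from 2.10 to 72.6 and from 2.35 to 19.8. The deposited enrichment of a TTS or 3' UTR peak was at the median 2.01 times the plain ratio of the treatment and input reads printed beside it, so the 2 scales are not interchangeable. TTS peaks at the outermost gene end and at inner ends had a median enrichment of 6.25 and 6.43 and a median length of 2150 and 2250 bp. Members were also bounded by the 5 kb promoter class. The 57 members with an assigned start less than 1 kb beyond that bound had a median of 48.2 treatment reads and an enrichment of 6.89, and the 77 peaks with the same terms less than 1 kb inside it had 50.6 and 7.10.

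**Figure D3:**
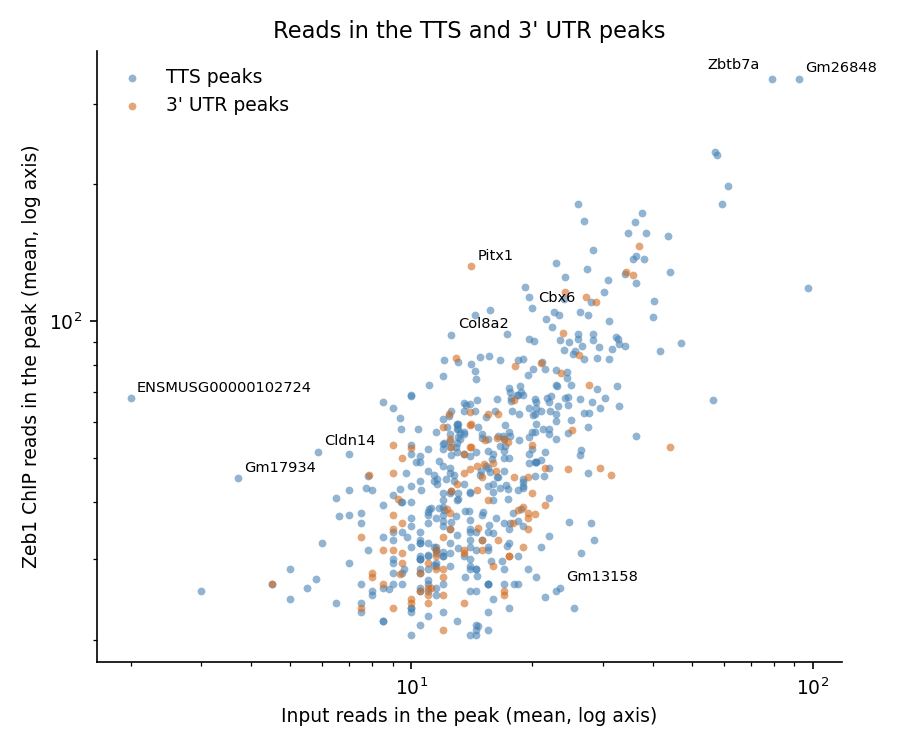
Mean Zeb1 ChIP reads against mean input reads of each TTS (blue) and 3' UTR (orange) peak, both on log axes, with 9 host genes named. The peaks of Gm26848 and Zbtb7a have the most treatment reads (341 and 340), and the peak of ENSMUSG00000102724 has 67.7 treatment reads over 2 input reads.

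The highest enrichment among TTS peaks belonged to the peak at chr3:93287401-93289050, annotated to ENSMUSG00000102724, with 67.7 treatment reads over 2 input reads (enrichment 72.6). Its centre lay in a simple repeat by the detailed annotation, and its GC content was 66.5%. The next were the pseudogene Gm17934 (27.2) and the transcript Gm33142 (21.9), with 3.71 and 3 input reads. The high ratios of these 3 peaks thus rest on very few input reads. Cldn14, which encodes a tight junction claudin, followed with 51.7 treatment reads over 5.86 input reads (enrichment 20.5) at chr16:93918551-93920450. The peak of the pseudogene Ppp4r1l-ps had 64.5 treatment reads and an enrichment of 16.4, and the detailed annotation placed it in a CpG island.

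Among 3' UTR peaks, that of Pitx1, a homeodomain factor of hindlimb development, stood highest, with 132 treatment reads over 14.1 input reads (enrichment 19.8) at chr13:55824551-55827150. No motif match was found in its 2600 bp. Cacna1i, a T-type calcium channel subunit, had 83 treatment reads and an enrichment of 14.5. The enrichment was 11.8 for Ctif, a factor of cap-dependent translation, and 11.4 for Trio, a guanine nucleotide exchange factor, the latter over only 4.50 input reads. By the detailed annotation the centre of the Cacna1i peak was in an exon, and those of the Pitx1, Ctif and Trio peaks were in a 3' UTR.

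The peaks with the most treatment reads were long or had many input reads. The peak of the noncoding gene Gm26848 had 341 treatment and 92.6 input reads. That of Zbtb7a, a zinc finger repressor, had 340 treatment and 79.1 input reads over 21900 bp, the greatest length in the whole list, and 20 motif matches. Its centre lay 8345 bp before the outermost end of Zbtb7a. The peaks of Creld1, Myh7b (a myosin heavy chain) and Pxn (the focal adhesion protein paxillin) had 235, 232 and 198 treatment reads and an enrichment of 8.10, 7.11 and 5.74. The long peak of Engase, a cytosolic endoglycosidase, covered 8900 bp with 59.3 treatment reads. At the other end, the peaks of Gm13158 and Gm23287 both had an enrichment of 2.10, with 26 and 25.5 treatment reads, and their centres lay in an LTR and a LINE element.

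Host genes were then read by gene group, beside the 2.21% of all protein-coding genes. Of 28 Polycomb genes 3 were hosts (10.7%), and they were Cbx6, Cbx2 and Cbx7, which encode chromodomain subunits of Polycomb repressive complex 1. Their TTS peaks had 107, 65.6 and 58.1 treatment reads and an enrichment of 10.8, 9.81 and 9.67. All 3 lay before the outermost end of their gene, by 3804, 2695 and 2818 bp. Of 23 naive pluripotency genes 2 were hosts (8.70%), the transcription factor genes Sall4 (57 treatment reads, enrichment 6.50) and Tbx3 (67.8 and 6.35).

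The epithelial and EMT list had 1 host of 32 genes (3.12%), the polarity gene Llgl2, with 21 treatment reads and an enrichment of 2.70. Of 59 Wnt pathway genes 2 were hosts (3.39%), the ligand genes Wnt10a (7.14) and Wnt11 (5.74), and of 26 Notch pathway genes 1 (3.85%), the coactivator gene Maml1, with a 3' UTR peak (7.12). Forkhead genes gave 2 hosts of 47 (4.26%), Foxp4 with an enrichment of 13.9 at its highest peak and Foxo3 with 6.20, and Sox and Hox genes 1 each, Sox13 (8) of 28 and Hoxd3 (6.30) of 43. The lists were described by these counts and were not tested.

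Among surface and structural genes, 4 of 93 cadherins and protocadherins (4.30%) were hosts, Cdh23 (8.70), Cdh22 (6.52), Cdh4 (4.7) and Cdh5 (3.45). Collagens, laminins and integrins gave 4 of 87 (4.60%), with Col8a2 (15.0) far above Itgb7 (5.90), Itga2b (4.65) and Col17a1 (2.80). Solute carriers gave 13 of 379 (3.43%), with Slc25a29 (9.66), Slc15a3 (9.10), Slc10a4 (8.06) and Slc4a8 (7.55) highest. Of 417 Zfp zinc finger genes 11 were hosts (2.64%), with a median enrichment of 5.14 and Zfp467 (8.29), Zfp827 (7.65), Zfp668 (6.80) and Zfp672 (6) highest. Of 394 ribosomal protein genes and pseudogenes 1 was a host (0.254%, beside 0.0704% of all processed pseudogenes), the pseudogene Rps12-ps9, with 26.5 treatment reads over 4.50 input reads. No host was found among the 5 mesendoderm genes named by the study and 3 nitric oxide synthases, lists so small that a count of 0 allows shares of up to 60% and 100%, nor among 70 replication-dependent histone genes (up to 4.29%). There was also none among 1190 genes with a microRNA symbol (Mir, up to 0.252%) and 150 with a symbol of small nucleolar RNAs (Snora, Snord or Scarna, up to 2%). By GENCODE type, however, 6 of 2207 microRNA genes (0.272%) and 2 of 1507 small nucleolar RNA genes (0.133%) were hosts, all under predicted gene names, with an enrichment of 3.15 to 9.70 and of 3.95 to 4.35.

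Further hosts outside these groups were named after their values were seen. TTS peaks of Stat5b, a signal transducer of cytokine receptors, and of Prdm13, a neural transcription factor, had an enrichment of 16.2 and 15.5, and those of Cic, a transcriptional repressor, and Zfpm1, a Gata cofactor, 14.3 and 12.6. These 4 lay 17119, 1545, 21959 and 1476 bp before the outermost end of the gene. In contrast, the TTS peaks of Dand5, an antagonist of Nodal (12.1), of Nr1d1, a circadian nuclear receptor (8.60), and of Tbx2, a T-box factor (7.18 with 154 treatment reads), lay 205, 32 and 752 bp past it. Rara, the retinoic acid receptor alpha gene, carried a TTS peak (7.22) 24117 bp and a 3' UTR peak (9.20) 942 bp before its end.

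Whether the TTS and 3' UTR peaks differed from other peaks away from starts was asked against 871 distal exon peaks, 1062 distal intron and 881 intergenic peaks, the latter 2 outside retrotransposons. Shares were compared by two-sided Fisher's exact tests, with Benjamini-Hochberg adjustment over all 19 class comparisons, of which 9 had an adjusted p below 0.05. Enrichment was above the list median of 6.50 in 262 of the 565 peaks (46.4%, interval 42.3 to 50.5), against 49.8% of the whole list. The share was higher than in distal intron peaks (38.5%, odds ratio 1.38, 95% interval 1.12 to 1.71, exact adjusted p = 0.00809). Against intergenic peaks it did not pass (40.6%, exact adjusted p = 0.0641), but it did among peaks with no curated start within 5 kb (exact adjusted p = 0.0472) and with treatment reads over input reads plus 1 in place of the enrichment (49.6% against 41.7%, exact adjusted p = 0.00931). It did not pass against distal exon peaks (51.3%, exact adjusted p = 0.118), and TTS (46.6%) and 3' UTR peaks (45.6%) gave an odds ratio of 1.04 (interval 0.674 to 1.61, exact adjusted p = 0.967). An enrichment of at least 10 was reached by 59 peaks (10.4%), 51 of them at a TTS, against 14.7% of the list, 16.5% of distal exon, 10.2% of distal intron and 11.1% of intergenic peaks, which was not tested.

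**Figure D4:**
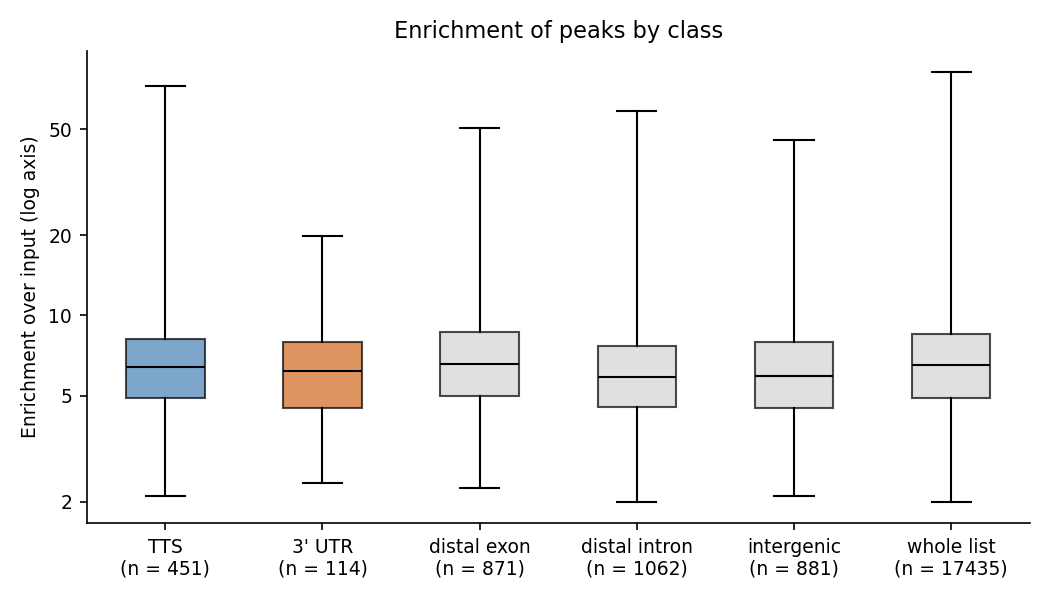
Enrichment over input by class of peak on a log axis; boxes show the quartiles with the median as a line, and whiskers reach the lowest and highest peak. The medians of TTS (6.40) and 3' UTR (6.21) peaks lie between those of distal exon (6.60) and distal intron (5.90) peaks.

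A motif match was found in 482 of the 565 peaks (85.3%, interval 82.2 to 88.0), against 76.8% of all peaks in the list. The peaks held 1.05 matches per kb, with 1.08 in TTS and 0.892 in 3' UTR peaks. Distal exon peaks held 1.08 per kb, distal intron peaks 1.05 and the whole list 0.889. The share was higher than in intergenic peaks (69.6%, odds ratio 2.54, interval 1.92 to 3.38, exact adjusted p = 3.37e-11). It did not pass against distal exon (83.7%, exact adjusted p = 0.580) or distal intron peaks (83.5%, exact adjusted p = 0.482), nor did TTS (85.8%) against 3' UTR peaks (83.3%, exact adjusted p = 0.624). Median length was 2150 bp for the 565 peaks and 1650 bp for intergenic peaks, and a longer peak has more places for a match. Intergenic peaks held 0.755 matches per kb, and among peaks of middle length the share was 83.6% against 72.2% (exact adjusted p = 0.00517). In the 200 bp at the peak centre the share was 15.9%, against 16.7% of all peaks in the list, so there it did not stand above the list. The difference from the list was not tested. At the centre the share did not pass against intergenic peaks (exact adjusted p = 0.211). In distal exon peaks it was 21.0%, a higher share (exact adjusted p = 0.0404). TTS peaks at inner ends held a match in 284 of 319 cases (89.0%) and those at the outermost gene end in 91 of 117 (77.8%). This was seen in the data and not tested, and host type was not held equal.

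The detailed annotation placed the centre of 25 of the 565 peaks (4.42%, interval 3.01 to 6.45) in a CpG island, against 14.6% of the list. All 25 were TTS peaks (5.54%), and 0 of 114 3' UTR peaks allows a share of up to 2.63% (exact adjusted p = 0.0119 for TTS against 3' UTR, and 0.0539 at middle length). The share was lower than in distal intron (12.2%, odds ratio 0.332, interval 0.205 to 0.520, exact adjusted p = 7.14e-07) and intergenic peaks (33.6%, odds ratio 0.0916, interval 0.0574 to 0.141, exact adjusted p = 3.91e-44), and did not pass against distal exon peaks (5.86%, exact adjusted p = 0.406). That annotation gives 1 term per peak, so a peak it called exon or 3' UTR could not also be called an island. It called 86 of the 114 3' UTR peaks 3' UTR and 12 exon. The count of 0 among 3' UTR peaks and its test are therefore largely set by the terms. By base composition, with CpG observed over expected of at least 0.6 and GC of at least 50%, 6.19% of the peaks were islands, 5.99% of TTS and 7.02% of 3' UTR peaks, against 6.40% of intron peaks (exact adjusted p = 0.967) and 11.4% of exon peaks (exact adjusted p = 0.00516). On this measure the differences from intron peaks and between TTS and 3' UTR peaks thus did not pass, and that from exon peaks did. The difference from intergenic peaks still passed but was smaller (16.6%, exact adjusted p = 1.68e-08), and 38.2% of the list were islands.

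**Figure D5:**
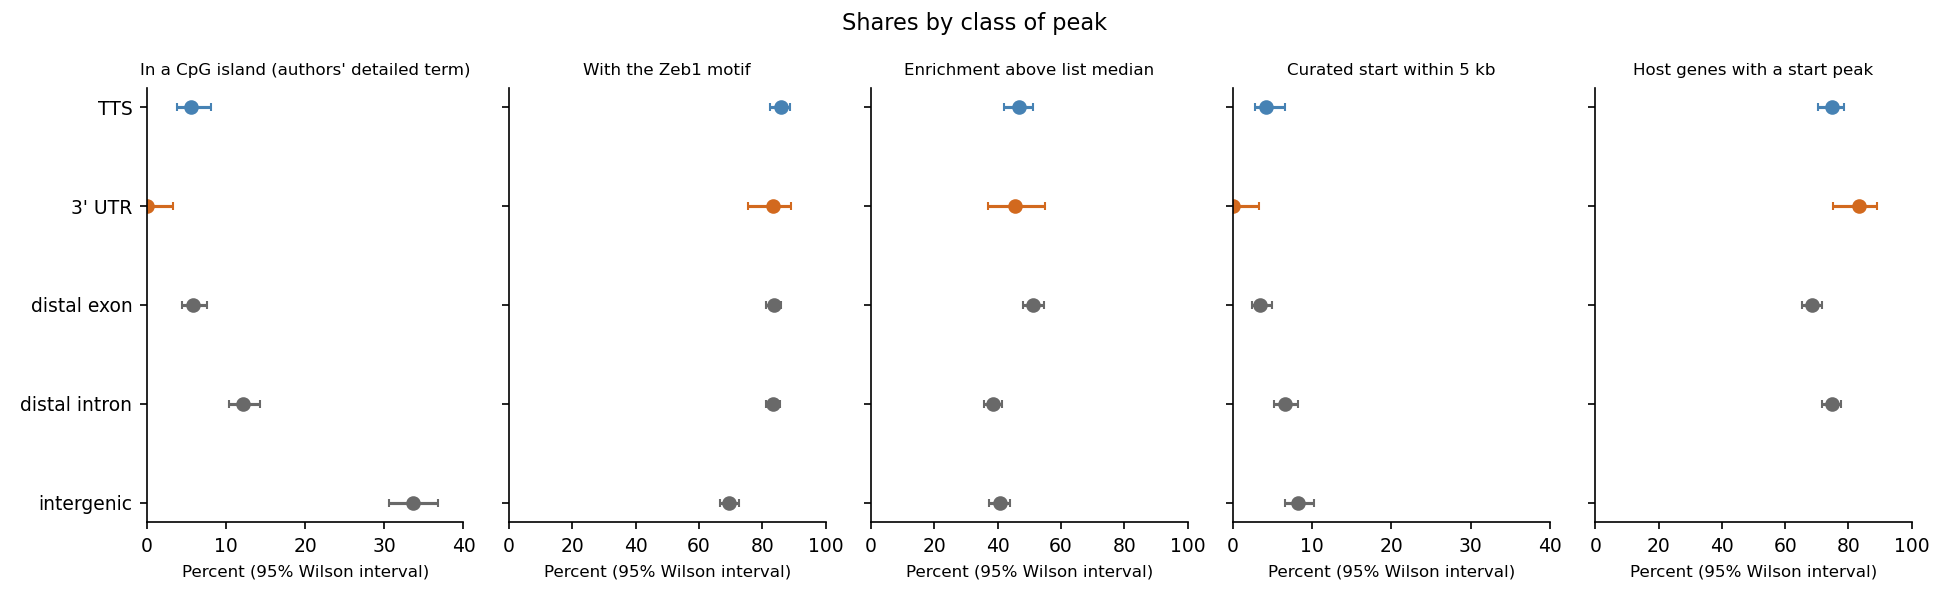
Share of peaks, or of host genes in the right panel, with each property by class; points are percentages, bars 95% Wilson intervals, and the axes end at 40% or 100%. TTS and 3' UTR peaks lie near distal exon and intron peaks in motif share (85.8% and 83.3%), and intergenic peaks stand apart in motif (69.6%) and CpG island (33.6%) shares.

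The start of a curated RefSeq transcript lay within 5 kb of the centre in 19 of the 565 peaks (3.36%, interval 2.16 to 5.19), against 63.1% of the list. All 19 were TTS peaks (4.21%), against 0 of 114 3' UTR peaks, which allows up to 2.63% (exact adjusted p = 0.0400). The share was lower than in distal intron (6.50%, odds ratio 0.501, interval 0.282 to 0.853, exact adjusted p = 0.0186) and intergenic peaks (8.17%, odds ratio 0.391, interval 0.220 to 0.665, exact adjusted p = 0.00101), and did not pass against distal exon peaks (3.44%, exact adjusted p = 1). The call between TTS and 3' UTR peaks was lost within 1 kb and 10 kb, with predicted transcripts, at an enrichment of at least 5 and at middle length (exact adjusted p from 0.100 to 0.546). Their difference was 1.77, 3.99, 6.12, 5.39 and 5.59 percentage points in that order, against 4.21 in the main comparison, so at the last 3 it was no smaller. The call against intron peaks was lost at an enrichment of at least 5 and at middle length (exact adjusted p = 0.0583 and 0.379). There the difference was -3.50 and -2.48 points, against -3.13. All 4 classes were made by leaving out peaks within 5 kb of their assigned start. That was the start of the closest gene in the authors' annotation, so these shares count only nearer curated starts that the assignment did not use. The comparisons within 5 kb thus reflect where the 2 annotations differ, and the rule itself keeps the shares below that of the whole list. Within 10 kb the assigned start can itself be counted, so shares at that distance measure something else. There the order turned: 42.7% of the TTS and 3' UTR peaks had a curated start, against 33.0% of exon (exact adjusted p = 6.87e-04), 29.0% of intron (exact adjusted p = 2.18e-07) and 25.0% of intergenic peaks (exact adjusted p = 2.25e-11). In the whole list it was 69.8%. With the starts of all GENCODE transcripts, an alternative added after seeing the data, 61.1% of the 565 peaks had a start within 5 kb. It was 49.1% of exon, 44.0% of intron and 28.0% of intergenic peaks, and 74.4% of the whole list. With these starts the share was 67.6% for TTS and 35.1% for 3' UTR peaks (exact adjusted p = 1.58e-09). The term TTS itself needs a transcript end close to the peak centre. The start of a short transcript with that end can lie within 5 kb too, so these GENCODE shares are not independent of the term.

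Host genes were also searched for a separate Zeb1 peak at a start. Of 535 host genes found in GENCODE, 409 (76.4%, interval 72.7 to 79.8) had another peak of the list, outside the TTS, 3' UTR, distal exon and distal intron classes, within 5 kb of the start of a transcript of their own. For the 487 protein-coding hosts the share was 81.3%, beside 51.3% of all protein-coding genes, which was not tested. Hosts of distal exon and distal intron peaks, of all gene types, also stood above 51.3% (68.5% and 74.9%). Pitx1, Sall4, Cbx2, Cbx6 and Cbx7 were among the 409 hosts with another start peak, and Cldn14 was not. Zbtb7a was not counted either, but its long TTS peak itself covered its starts. In all, 38 of the 126 hosts without another start peak (30.2%) had a TTS or 3' UTR peak that covered a start of their own. Among all 535 hosts it was 130 (24.3%). The share of hosts with another start peak (76.4%) was higher than among 769 host genes of distal exon peaks (68.5%, odds ratio 1.49, interval 1.15 to 1.93, exact adjusted p = 0.00672) and did not pass against 796 host genes of distal intron peaks (74.9%, exact adjusted p = 0.624) or between TTS (74.8%) and 3' UTR hosts (83.2%, exact adjusted p = 0.107). The difference from exon hosts lost its call with all peaks, start peaks included, held to middle length (37.5% against 33.3%, exact adjusted p = 0.512) and with only the TTS, 3' UTR and exon peaks so held, added after seeing the data (71.0% against 64.1%, exact adjusted p = 0.160). It also lost it within 1 kb (68.4% against 63.2%, exact adjusted p = 0.101) and in genes of at least 20 kb (84.0% against 77.7%, exact adjusted p = 0.0619). With the outermost start alone, added after seeing the data, it was 69.5% against 63.6% (exact adjusted p = 0.0529). The difference between TTS and 3' UTR hosts, in contrast, passed with only the TTS and 3' UTR peaks held to middle length (66.9% against 84.9%, exact adjusted p = 0.0345), but not with start peaks so held too (37.8% against 37.7%, exact adjusted p = 1). It also passed within 1 kb (66.1% against 77.9%, exact adjusted p = 0.0400) and with the outermost start (66.8% against 78.8%, exact adjusted p = 0.0376). Host type was not held equal between TTS and 3' UTR hosts. The host was protein-coding for 395 of 443 TTS peaks (89.2%) and for all 114 3' UTR peaks. As given above, protein-coding hosts had a higher share (81.3%) than all 535 hosts (76.4%). The difference between TTS and 3' UTR hosts was not tested among protein-coding hosts alone. Some genes were hosts in both classes of a comparison, 6 for TTS and 3' UTR, 52 for exon and 93 for intron hosts. Without them, an alternative added after seeing the data, the difference from exon hosts passed within 5 kb (75.2% against 67.1%, exact adjusted p = 0.00953). It did not pass within 1 kb (67.1% against 61.9%, exact adjusted p = 0.119) or with the outermost start (67.9% against 62.1%, exact adjusted p = 0.0733). Also without shared hosts, the difference between TTS and 3' UTR hosts had an exact adjusted p of 0.118 within 5 kb, 0.0429 within 1 kb and 0.0185 with the outermost start.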

How the data were processed

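The authors aligned the reads to mm10 with STAR 2.4.2a, removed duplicates with Picard 1.136, called peaks library by library with the input as control, unified peaks found in more than 1 library and annotated them with HOMER 4.7. The deposited signal columns are mean treatment and input reads per peak, and the enrichment is a ratio, normalized and averaged by the authors. The p-value column the authors deposited holds 0 throughout and served no step here. Per the methods, the same number of reads was drawn from each library, and the list gives no depth. Host genes, their transcript ends and their own starts came from GENCODE vM21, curated starts, ends and 3' UTRs and the sequence from RefSeq GRCm38.p6. Peaks were classed by annotation, and shares were compared with Fisher's exact test and Wilson intervals, which cover counting error only, in Python 3.11.15, pandas 2.3.3, NumPy 2.4.6 and SciPy 1.17.1, after tests on simulated data. Members and lists were chosen with earlier results of these data known. Named genes were the hosts of the 5 TTS and 5 3' UTR peaks of highest enrichment, of the 5 peaks with the most treatment reads and the 5 longest, hosts with 3 or more peaks, hosts of the 2 peaks of lowest enrichment, and at most 4 hosts per list; further hosts are marked in the text as named after their values were seen. Some genes this rule names, and the lists that rest on them, are not reported here. The small nucleolar RNA list was narrowed after Snorc, a gene of another kind, had matched it. Alternatives changed thresholds, lengths, distances, motif and island definitions.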

Additional observations from a re-analysis of the deposited data

How the results depend on the processing

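Of 108 alternatives, 62 were counted as unchanged, which for a comparison means the same direction and side of the threshold. Both counts include alternatives for the number of members, which has no direction or p-value. At an enrichment of at least 5 that number was 406, counted as unchanged. Values of comparisons are differences in percentage points, the 565 peaks or TTS peaks first. By curated RefSeq transcripts 259 peaks were members, 237 of them among the 565, and 189 of the 565 overlapped a curated transcript end. Island by base composition: -5.17 from exon peaks (passing), -0.208 from intron peaks, -1.03 for TTS against 3' UTR. Motif in 200 bp: -5.08 from exon (passing), -3.56 from intron, 2.65 from intergenic peaks. Motif at middle GC, TTS against 3' UTR: -0.735. Enrichment of at least 5: motif -0.130 from exon peaks, start site 0.628 from exon peaks, -3.50 from intron peaks (call lost) and 5.39 for TTS against 3' UTR (call lost). For the enrichment share this limit acts on the same measure, so its values (6.60 from intron peaks, -9.35 for TTS against 3' UTR) say nothing and its 4 comparisons are not counted. Middle length: island 8.38 and enrichment share -3.67 for TTS against 3' UTR, start site 0.189 from exon, -2.48 from intron and 5.59 for TTS against 3' UTR, host start peak 4.17 from exon hosts, -1.44 from intron hosts and 0.0548 for TTS against 3' UTR hosts (with start peaks of any length 6.92, -1.13 and -18.0, the last passing). Enrichment share against intergenic peaks passed with treatment over input plus 1 (7.90) and with no start within 5 kb (6.23). Start within 10 kb: 9.70, 13.7 and 17.7 from exon, intron and intergenic peaks, 3.99 for TTS against 3' UTR; GENCODE starts: 11.9, 17.1 and 33.0. Start site, TTS against 3' UTR: 1.77 within 1 kb, 6.12 with predicted transcripts (calls lost). Host start peak within 1 kb: 5.21 from exon hosts, -0.810 from intron hosts, -11.8 for TTS against 3' UTR hosts (passing); hosts of at least 20 kb: 6.30 from exon hosts; outermost start: 5.94 and, for TTS against 3' UTR hosts, -11.9 (passing). Without hosts shared by both classes, within 1 kb: 5.16 from exon hosts, -1.79 from intron hosts, -11.7 for TTS against 3' UTR hosts (passing); outermost start: 5.84 from exon hosts, -13.3 for TTS against 3' UTR hosts (passing). The cause was not tested. Host type was not held equal between TTS and 3' UTR hosts, and shares by GENCODE starts are not independent of the term TTS. No paired analysis was possible because the list holds no value per library, which also prevents leaving out a library. A high enrichment over fewer than 5 input reads is imprecise.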
